A study of Mus musculus with 12 samples.

Results

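A set of 33 genes that mark endothelial identity was followed in bulk RNA-seq of 12 mouse breast tumours, collected at day 22 from mammary fat pads of C57BL/6J mice into which the triple-negative cancer line E0771 had been injected. Members were picked by gene symbol, with no measured value in the rule, and all 33 were present among the 25116 rows of the deposited count table. In every host mouse, in both groups, Tie2CreER was carried together with ERKi. Tie2CreER is a Cre recombinase that needs tamoxifen to act and whose Tie2 promoter is active in endothelium and is also known to be active in some blood cells, and ERKi is an inducible knock-in gene for endorepellin, the C-terminal part of perlecan. The induced group held 7 tumours from mice injected with tamoxifen, and the control group held 5 tumours from mice given a control injection whose content the labels do not state. Only the induced mice received tamoxifen, so an effect of the drug and an effect of the knock-in gene cannot be told apart. Endorepellin is known to bind receptors on endothelial cells and to restrain angiogenesis, and the comparison asks whether tumour endothelial transcripts differ when the knock-in gene is induced.

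Endothelial cells line all blood vessels and are held together by adherens and tight junctions built on VE-cadherin, PECAM-1 and claudins. Their identity is known to be kept by ETS factors such as ERG and FLI1 together with SOXF factors and, in part, by the TAL1 and LYL1 factors shared with blood cells. The proteins these factors switch on include sialomucins of the luminal surface, the enzyme that makes vascular nitric oxide, matrix proteins secreted around the vessel, and receptors for sphingosine-1-phosphate and adrenomedullin. In a tumour many of these transcripts come mainly from the host's vessels, though some members are also made by other cells. The cancer cells, leukocytes and fibroblasts supply most of the RNA.

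RefSeq promoter windows (GRCm38.p6, 250 bases before and 50 after each gene's start) were matched by symbol for 15 of the 33 members, in 20 windows. The ETS core AGGAAG was searched on both strands as AGGAAG or CTTCCT. It was found in 11 of the 20 member windows (55%), against 35.4% of all 32851 windows. Those 11 windows belong to 10 of the 15 members. ACAGGAA (or TTCCTGT), a short word searched for FOX and ETS together, was found in 5 member windows (25%), against 8.67% of all windows. Those 5 windows belong to 4 of the 15 members. Bases beside the word were not searched, so a match need not hold a complete FOX site. The word can share bases with AGGAAG. The SOX word AACAAT (or ATTGTT) was found in 15% of member windows against 10.7% of all windows, and the GC box GGGCGG (or CCGCCC) in 35% against 35.7%. AGATAA (or TTATCT), the GATA word, was found in 10% of member windows against 11.2% of all windows. CAGATG (or CATCTG), an E-box, stood in 15% against 17.2%, and TATAAA (or TTTATA) in 5% against 13.6%. These matches describe letters in the windows and no binding was measured. The windows of 4 members to which the results return are printed 5′ to 3′ on the gene's own strand. Matches to AGGAAG and ACAGGAA, on either strand, are in capitals. The windows are shown because they let the shared core be seen beside genes that varied in different ways across the tumours. Egfl7 has several RefSeq windows, of which the middle is shown (chr2:26583615-26583914, plus strand), and the others are Calcrl (chr2:84425217-84425516, minus strand), Emcn (chr3:137340828-137341127, plus strand) and Robo4 (chr9:37401722-37402021, plus strand).
Egfl7: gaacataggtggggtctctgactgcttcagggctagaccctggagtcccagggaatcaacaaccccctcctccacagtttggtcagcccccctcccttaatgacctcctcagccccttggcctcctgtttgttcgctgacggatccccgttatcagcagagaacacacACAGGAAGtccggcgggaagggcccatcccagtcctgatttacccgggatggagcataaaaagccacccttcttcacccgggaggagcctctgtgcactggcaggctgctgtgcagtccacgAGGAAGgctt
Calcrl: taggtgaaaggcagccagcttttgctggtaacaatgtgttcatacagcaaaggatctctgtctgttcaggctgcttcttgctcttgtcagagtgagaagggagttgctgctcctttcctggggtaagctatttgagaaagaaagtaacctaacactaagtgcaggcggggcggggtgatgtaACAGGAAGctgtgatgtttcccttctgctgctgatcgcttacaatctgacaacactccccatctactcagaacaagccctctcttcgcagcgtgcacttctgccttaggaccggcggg
Emcn: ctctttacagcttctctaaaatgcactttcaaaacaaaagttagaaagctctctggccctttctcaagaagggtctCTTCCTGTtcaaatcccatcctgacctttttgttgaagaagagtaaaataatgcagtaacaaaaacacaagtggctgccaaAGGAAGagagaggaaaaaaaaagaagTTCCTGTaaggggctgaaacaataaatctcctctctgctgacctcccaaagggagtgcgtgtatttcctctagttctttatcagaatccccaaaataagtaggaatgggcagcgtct
Robo4: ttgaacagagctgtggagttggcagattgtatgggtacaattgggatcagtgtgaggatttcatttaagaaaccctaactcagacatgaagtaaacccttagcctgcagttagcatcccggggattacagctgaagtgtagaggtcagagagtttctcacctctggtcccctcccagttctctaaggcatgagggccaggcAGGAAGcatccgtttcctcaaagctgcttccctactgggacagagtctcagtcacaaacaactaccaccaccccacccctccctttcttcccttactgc

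Egfl7 also carries a microRNA known for its endothelial expression, mmu-miR-126a-3p (chr2:26591402-26591423, plus strand, GRCm38.p6). Its mature sequence is shown with the seed, bases 2 to 8, in capitals, because its hairpin covers 2.04% of the exonic bases annotated to Egfl7. The level of the microRNA was not analysed here.
mmu-miR-126a-3p: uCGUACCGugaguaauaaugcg

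Libraries held 18993192 to 28372821 counts in all, with 21350 to 24087 genes detected in each. On the first principal component, which held 45.7% of the variance, induced 3, induced 4, control 1 and control 2 lay at 42.1 to 73.2 and the other 8 tumours at -40.3 to -4.50. Markers of other cell types varied between libraries, and the 4 that lay apart held the 4 highest sums of fibroblast markers. The summed level of 10 leukocyte markers was 166 to 549 CPM (counts scaled to library size, median 339) in induced tumours and 299 to 1222 CPM (median 408) in control tumours, with the top value in control 1. For 8 fibroblast markers the sums were 546 to 2010 CPM (median 763) in induced tumours and 674 to 3299 CPM (median 1008) in control tumours, again with the top value in control 1. Pericyte and smooth muscle markers (10 genes) summed to 107 to 198 CPM in induced tumours and 118 to 186 CPM in control tumours. In the edgeR fit all 10 leukocyte markers and all 8 fibroblast markers were below 0, with 3 and 1 of them at an unadjusted p under 0.05, all 5 erythrocyte markers were above 0, and none was called. Without control 1, 8 of 10 leukocyte and 3 of 8 fibroblast markers were below 0 and 4 of 5 erythrocyte markers above it. Only 1 of the 5 erythrocyte markers was above 0 without induced 5, and likewise with limma-voom and sample quality weights. The part of these cells in the members' values was not tested. Of 5 lymphatic markers, Prox1 was at or near 0 in every tumour, and a sum of 69.4 CPM in induced 4, against at most 33.1 CPM elsewhere, was mostly Lyve1, which macrophages also express. Of 6 epithelial markers of the labelled cancer line, Krt8 stood at 0.827 to 2.29 CPM in induced tumours and 0.875 to 1.88 CPM in control tumours, while Epcam averaged 0.739 ± 0.327 CPM in induced and 0.589 ± 0.515 CPM in control tumours (SD, n = 7 and n = 5). Krt5, Krt7 and Krt14 were each at 0 in at least 1 tumour, so defining epithelial markers were nearly absent from these tumours. Hspg2, the perlecan gene whose C-terminal part the knock-in encodes, was at 535 ± 100 CPM in induced and 549 ± 81.5 CPM in control tumours (SD, n = 7 and n = 5). This value does not measure induction, since whether knock-in reads were counted to Hspg2 was not given in the sources used here.

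All 33 members were detected. Ets1, an ETS factor that lymphocytes and stromal cells also use, was highest at 32.6 CPM per kilobase of exons (mean of 12 tumours). The part of cancer cells, lymphocytes and stroma in this level was not tested. Egfl7 (10.9), Cdh5 (10.3), Sox7 (8.46), Plvap (6.75) and Ramp2 (6.34) followed on the same scale. The lowest were Gja5 (0.0861), Cyyr1 (0.140), Tal1 (0.181), Gja4 (0.243) and Sox17 (0.267). Egfl7 and Cdh5, neighbours in this order, did not differ beyond their spread over tumours. Leaving out Ets1, the summed level of the 32 other members was 276 to 363 CPM (median 318) in induced tumours and 285 to 347 CPM (median 342) in control tumours. The members' sum therefore covered about the same range in both groups.

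**Figure D1:**
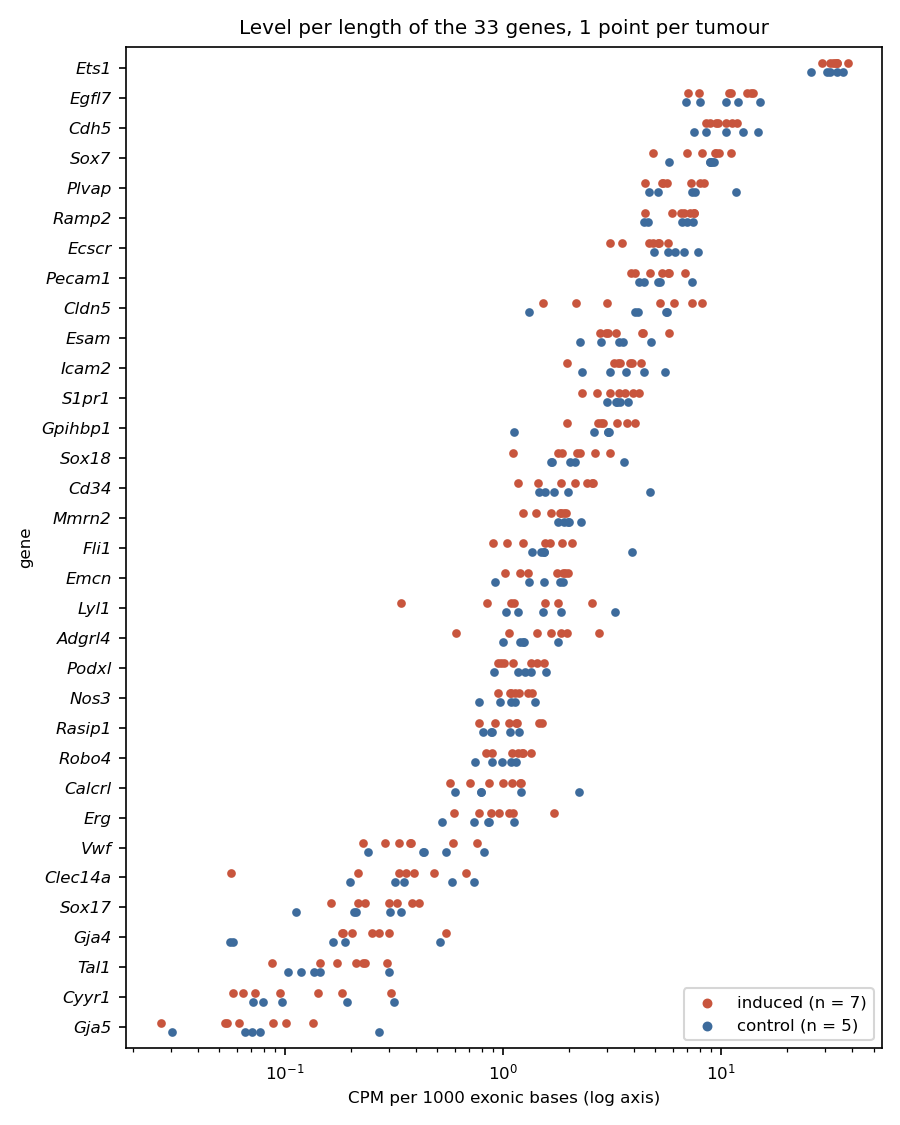
Level of each of the 33 genes in CPM per kilobase of exons (log axis), with 1 point per tumour, induced tumours above control tumours in each row. Ets1 lies highest at a mean of 32.6 and Gja5 lowest at 0.0861, and the induced and control points interleave in every row.

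No endothelial identity gene passed the test between induced and control tumours. By edgeR's quasi-likelihood test with Benjamini-Hochberg adjustment over 15199 genes, 0 of the 31 members tested had an adjusted p under 0.05, and over all genes 0% did. The count was also 0 with DESeq2 and with limma-voom run with sample quality weights. At an unadjusted p under 0.05 there was 1 member, Ecscr, or 3.23% of the 31, against 2.13% of all genes (324 in edgeR, 391 in DESeq2 and 996 in limma-voom with sample quality weights). It lay lower in induced tumours, as did 1.54% of all genes at that p, and 0 members were higher, against 0.592% of all genes. The other members, Gja4 and Gja5, had too few counts for the test. Fitted log2 fold changes were above 0 for 15 and below 0 for 16 members, a share of 48.4% above 0 against 49.8% of all genes. Their median was -0.01, against -0.00083 over all genes, and they ran from -0.45 for Ecscr to 0.32 for Adgrl4. In bulk tissue, fewer endothelial cells and less RNA per endothelial cell cannot be told apart, so these values cover both.

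The groups overlapped for every member tested, where 0.0526% of all genes had groups that did not overlap. The 95% intervals of the members' folds lay between 0.401 (the lower bound of Lyl1) and 2.22 (the upper bound of Cldn5). The interval of Ets1 ran from 0.912 to 1.21 and that of Pecam1 from 0.764 to 1.26. Control 1 weighed heavily, as without it the fitted sign changed for 12 of the 31 members, and 19 were then above 0. Leaving out any other single tumour changed at most 3 signs (without induced 6). The share of all genes that changed sign is not given here. Without all 4 of the tumours that lay apart, 13 of the 31 were above 0.

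**Figure D2:**
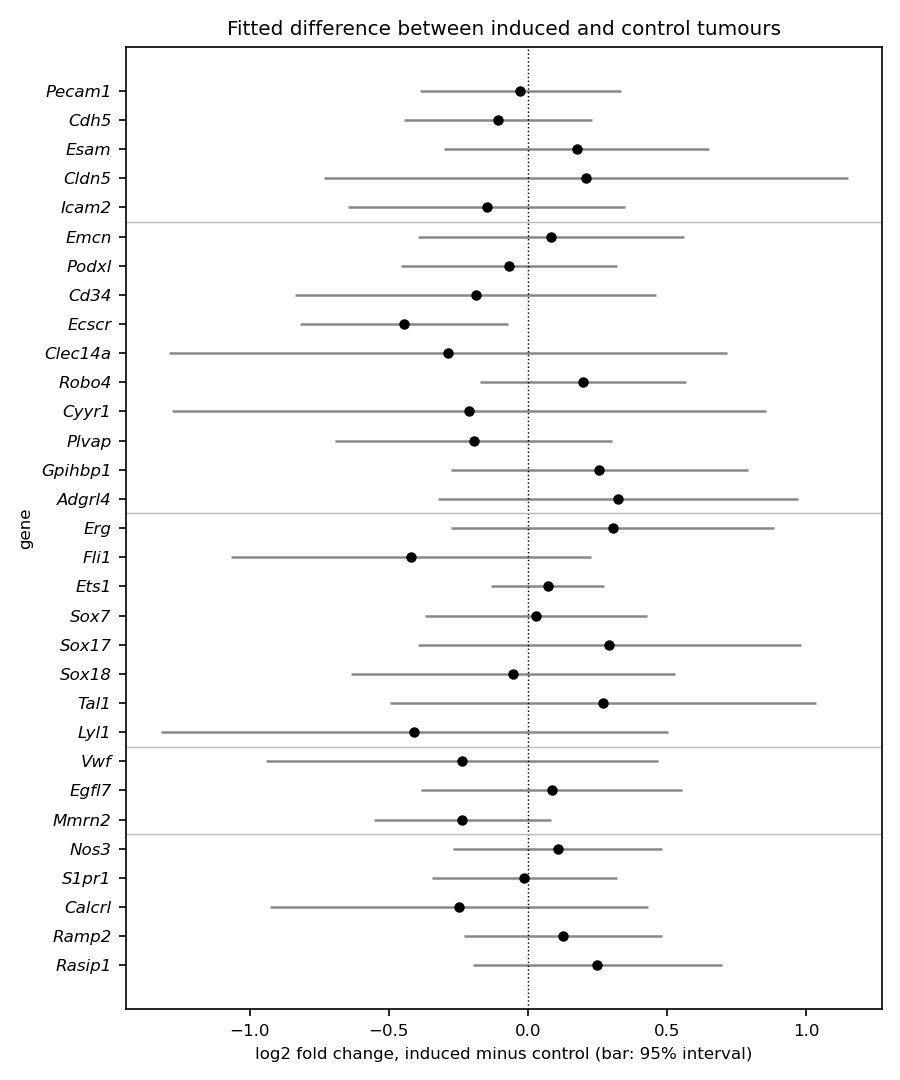
Fitted log2 fold change, induced minus control, of the 31 tested members (points) with 95% intervals (bars), grouped by role between grey lines. The interval of Ecscr alone lies wholly below 0, and all others cross it.

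Among the 5 junction and adhesion proteins, 2 had fitted values above 0 and 3 below, and none was called. Cdh5, VE-cadherin of the adherens junction (ENSMUSG00000031871, chromosome 8 from 104101625 to 104144511, plus strand, GRCm38), was at 35.9 CPM in the lowest, 40.5 in the median and 49.9 in the highest induced tumour. In the 5 control tumours Cdh5 was at 44.4, 35.7, 53.2, 31.4 and 62.0 CPM. The induced tumours thus lay inside the control range, and the log2 fold change was -0.11 (SE 0.16, 95% interval -0.44 to 0.23). Pecam1, PECAM-1, which platelets and leukocytes share with endothelium (ENSMUSG00000020717, chromosome 11 from 106654217 to 106750628, minus strand), was at 24.0 CPM in the lowest, 33.5 in the median and 42.4 in the highest induced tumour. Its control values were 46.0, 27.6, 32.5, 26.3 and 32.0 CPM, the top value being control 1. The log2 fold change of Pecam1 was -0.03 (SE 0.17, 95% interval -0.39 to 0.33). Without control 1 it was 0.12.

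Esam, an immunoglobulin-type adhesion molecule of tight junctions, averaged 10.9 ± 3.09 CPM in induced and 9.61 ± 2.67 CPM in control tumours (SD, n = 7 and n = 5). Cldn5, the main claudin of endothelial tight junctions, averaged 6.78 ± 3.68 CPM in induced and 5.88 ± 2.49 CPM in control tumours. Its range was 2.17 to 11.6 CPM in induced tumours and 1.87 to 8.0 CPM in control tumours. Icam2, a ligand for the leukocyte integrin LFA-1, averaged 6.54 ± 1.42 CPM in induced and 7.25 ± 2.37 CPM in control tumours.

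Of 10 surface proteins, 4 were fitted above 0 and 6 below, with Ecscr the single member under an unadjusted p of 0.05. Ecscr (ENSMUSG00000073599), an endothelial membrane protein known to act in migration and apoptosis, was at 5.41 CPM in the lowest, 8.49 in the median and 10.0 in the highest induced tumour. The control tumours held 8.65, 10.8, 11.8, 9.96 and 13.7 CPM. All 7 induced tumours lay below the control mean of 10.98 ± 1.89 CPM, yet the groups overlapped, since control 1 was below 3 induced tumours. The log2 fold change of Ecscr was -0.45 (SE 0.17, 95% interval -0.82 to -0.07), which spans folds from 0.567 to 0.951. Its unadjusted p was 0.0229 and its adjusted p 0.999886 in the edgeR quasi-likelihood test, so the difference did not hold against the number of genes tested. In the authors' deposited table, Ecscr had a log2 fold change of -0.44 with an unadjusted p of 0.0130 and an adjusted p of 0.994. Across fits that each left out a tumour, its log2 fold change stayed between -0.53 and -0.35. An exon of a gene on the opposite strand, 1700066B19Rik, shares 3.54% of the exonic bases of Ecscr.

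Robo4, a roundabout receptor known to stabilise vessels (ENSMUSG00000032125, chromosome 9 from 37401897 to 37415115, plus strand), was at 4.44 CPM in the lowest, 6.22 in the median and 7.12 in the highest induced tumour. Its control values were 3.94, 4.72, 6.05, 5.25 and 5.79 CPM, so control 1 stood below every induced tumour and the other 4 lay inside the induced range. The log2 fold change was 0.20 (SE 0.17, 95% interval -0.17 to 0.57). Gpihbp1, which carries lipoprotein lipase to the capillary lumen (ENSMUSG00000022579, chromosome 15 from 75596628 to 75599481, plus strand), was at 5.01 CPM in the lowest, 7.34 in the median and 10.3 in the highest induced tumour. Control tumours held 2.87, 7.70, 7.81, 7.70 and 6.64 CPM, and only control 1 stood below every induced tumour. With that library the log2 fold change was 0.26 (SE 0.25) and without it 0.06. Adgrl4, an adhesion G protein-coupled receptor of vessels (ENSMUSG00000039167, chromosome 3 from 151437887 to 151545086, plus strand), was at 2.79 CPM in the lowest, 7.62 in the median and 12.6 in the highest induced tumour. In control tumours it was at 5.64, 8.22, 5.71, 4.57 and 5.51 CPM. The induced tumours both undershot and overshot the controls, and the log2 fold change was 0.32 (SE 0.30, 95% interval -0.32 to 0.97).

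None of the 3 sialomucins was called. Emcn, endomucin of capillaries and veins, averaged 8.54 ± 2.15 CPM in induced and 8.07 ± 2.13 CPM in control tumours (SD, n = 7 and n = 5). Podxl, podocalyxin, an anti-adhesive relative of CD34, averaged 6.55 ± 1.31 CPM in induced and 6.86 ± 1.34 CPM in control tumours. Cd34, which stromal and blood progenitor cells also carry, averaged 14.7 ± 4.05 CPM in induced and 16.7 ± 10.0 CPM in control tumours, and control 1 alone held 34.5 CPM. Its log2 fold change was -0.19 (SE 0.30) with control 1 and 0.25 without it. Control 1 was also the tumour with the highest sums of leukocyte and fibroblast markers, 1222 and 3299 CPM, and the part of those cells in the value of Cd34 was not tested.

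Plvap, which forms the diaphragms of fenestrae and caveolae, averaged 12.7 ± 2.98 CPM in induced and 14.5 ± 5.54 CPM in control tumours (SD, n = 7 and n = 5). Clec14a, a lectin-like protein that binds multimerin-2, averaged 1.64 ± 0.892 CPM in induced and 2.00 ± 0.991 CPM in control tumours. Cyyr1 averaged 1.17 ± 0.797 CPM in induced and 1.34 ± 0.923 CPM in control tumours. These last genes were among the most variable of the set between tumours, with coefficients of variation over the 12 tumours of 50.7% for Clec14a and 65.6% for Cyyr1.

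**Figure D3:**
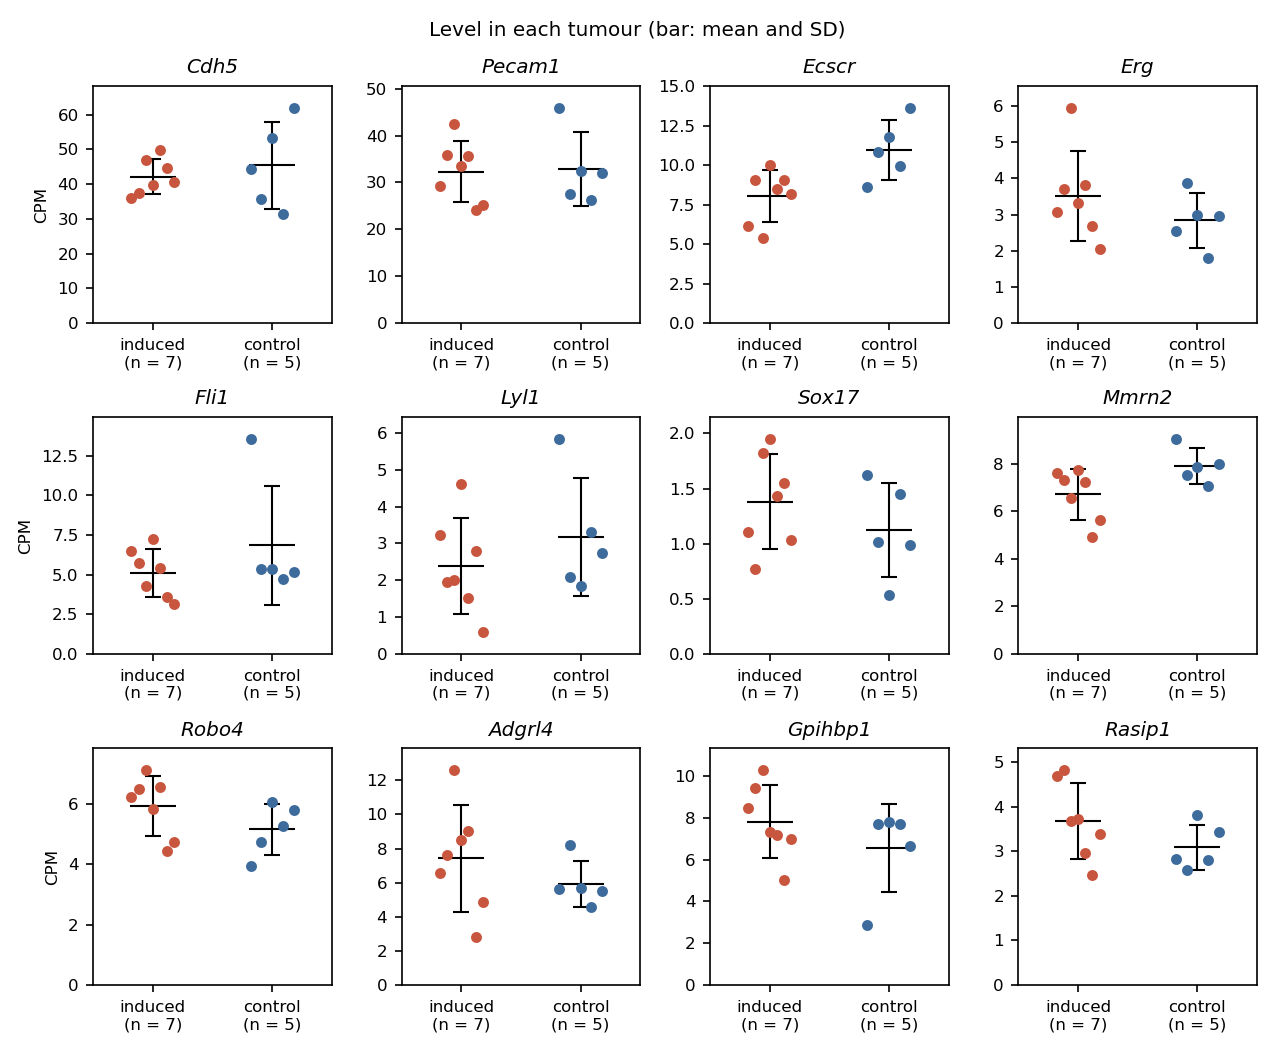
Level in CPM of 12 members in each induced (left, n = 7) and control (right, n = 5) tumour, with the mean and SD as bars. Ecscr and Mmrn2 have every induced tumour below the control mean, single control tumours stand high for Fli1 and Lyl1 and low for Gpihbp1, and the groups overlap in each panel.

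Of the 8 transcription factors, 5 were fitted above 0 and 3 below. Erg, the ETS factor most closely tied to endothelium (ENSMUSG00000040732, chromosome 16 from 95359169 to 95586593, minus strand), was at 2.06 CPM in the lowest, 3.32 in the median and 5.96 in the highest induced tumour. Its control values were 2.56, 3.88, 2.98, 1.81 and 2.97 CPM. Induced 3 exceeded all other tumours and the rest of the values were interleaved, and the log2 fold change was 0.31 (SE 0.27, 95% interval -0.27 to 0.89). Fli1, its ETS relative that is also strong in blood cells (ENSMUSG00000016087, chromosome 9 from 32422204 to 32542861, minus strand), was at 3.13 CPM in the lowest, 5.45 in the median and 7.23 in the highest induced tumour. Control tumours held 13.6, 5.39, 5.37, 4.71 and 5.18 CPM. The log2 fold change of Fli1 was -0.42 (SE 0.30) with control 1 and -0.02 without it. Ets1 averaged 282 ± 23.1 CPM in induced and 268 ± 32.9 CPM in control tumours (SD, n = 7 and n = 5), and at 9.81% it had the smallest coefficient of variation of the set.

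The SOXF factors, which act together in vessel specification, were each spread across both groups. Sox17, the arterial member (ENSMUSG00000025902, chromosome 1 from 4490931 to 4497354, minus strand), was at 0.772 CPM in the lowest, 1.43 in the median and 1.95 in the highest induced tumour. In control tumours Sox17 was at 1.63, 1.01, 0.537, 1.45 and 0.989 CPM. The ranges overlapped over most of their length, and the log2 fold change was 0.29 (SE 0.32, 95% interval -0.39 to 0.98). Exons of a transcript on the opposite strand, Gm37587, share 16.9% of its exonic bases, and the use of strand in counting was not given in the sources used here. Sox7 averaged 28.1 ± 6.82 CPM in induced and 27.6 ± 4.83 CPM in control tumours, and Sox18 averaged 3.46 ± 1.03 CPM in induced and 3.59 ± 1.29 CPM in control tumours (SD, n = 7 and n = 5).

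Lyl1, a basic helix-loop-helix factor of endothelium and blood (ENSMUSG00000034041, chromosome 8 from 84701457 to 84704715, plus strand), was at 0.610 CPM in the lowest, 2.02 in the median and 4.61 in the highest induced tumour. Its control values were 5.84, 2.10, 1.85, 3.30 and 2.73 CPM, with the top value in control 1. The log2 fold change of Lyl1 was -0.41 (SE 0.42) with control 1 and -0.07 without it. Tal1, its close relative and a founder factor of blood and vessels, averaged 0.857 ± 0.296 CPM in induced and 0.703 ± 0.349 CPM in control tumours (SD, n = 7 and n = 5). For Tal1 the log2 fold change was 0.27 (SE 0.36) with control 1 and 0.62 without it. Fli1, Lyl1 and Tal1, the factors that blood cells share, were among the 11 members highest in control 1. Tal1 was nearly level in control 1 (1.31 CPM) and induced 6 (1.29 CPM). Control 1 held 1222 CPM of leukocyte markers against at most 549 CPM in any other tumour, with 339 CPM in induced 6. The part of leukocytes in the values of Fli1, Lyl1 and Tal1 was not tested.

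Among the 3 secreted and matrix proteins, 1 was fitted above 0 and 2 below. Mmrn2, multimerin-2 of the endothelial matrix (ENSMUSG00000041445, chromosome 14 from 34375465 to 34404287, plus strand), was at 4.91 CPM in the lowest, 7.25 in the median and 7.74 in the highest induced tumour. The control tumours held 9.06, 7.52, 7.86, 7.06 and 8.0 CPM. All 7 induced tumours lay below the control mean, although the ranges overlapped between 7.06 and 7.74 CPM. The log2 fold change of Mmrn2 was -0.24 (SE 0.15, 95% interval -0.55 to 0.08), with an unadjusted p of 0.133 in edgeR. Vwf, von Willebrand factor of endothelial storage granules, averaged 6.76 ± 2.99 CPM in induced and 7.94 ± 3.41 CPM in control tumours (SD, n = 7 and n = 5). Egfl7, a secreted factor that guides vessel tube formation, averaged 39.8 ± 10.0 CPM in induced and 37.6 ± 11.7 CPM in control tumours. Exons of Gm20532 on the same strand share 7.37% of the exonic bases of Egfl7.

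Of 5 signalling proteins and receptors, 3 were fitted above 0 and 2 below. Rasip1, a Ras-interacting protein needed for vessel lumens (ENSMUSG00000044562, chromosome 7 from 45627488 to 45639093, plus strand), was at 2.48 CPM in the lowest, 3.69 in the median and 4.84 in the highest induced tumour. In control tumours it was at 2.84, 2.59, 3.81, 2.81 and 3.44 CPM. All 5 control values lay inside the induced range, and the log2 fold change was 0.25 (SE 0.21, 95% interval -0.20 to 0.70). Izumo1 on the same strand shares 20.4% of its exonic bases, so reads of that gene and of Rasip1 may be split between them. Nos3, the endothelial nitric oxide synthase, averaged 4.77 ± 0.577 CPM in induced and 4.43 ± 0.952 CPM in control tumours (SD, n = 7 and n = 5). Gm15587, an antisense transcript, shares 25.2% of the exonic bases of Nos3. S1pr1, the sphingosine-1-phosphate receptor that tightens junctions, averaged 10.1 ± 2.06 CPM in induced and 10.2 ± 0.815 CPM in control tumours.

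Calcrl and Ramp2 encode the chains of the adrenomedullin receptor of vessels, a G protein-coupled receptor and the membrane partner that brings it to the surface. Calcrl averaged 4.64 ± 1.2 CPM in induced and 5.49 ± 3.21 CPM in control tumours, where control 1 held 10.9 CPM (SD, n = 7 and n = 5). Ramp2 averaged 21.7 ± 3.57 CPM in induced and 19.9 ± 4.62 CPM in control tumours. The fitted log2 fold change was -0.25 (SE 0.32) for Calcrl, or 0.16 without control 1, and 0.13 (SE 0.16) for Ramp2. Vps25 on the same strand shares 33.4% of the exonic bases of Ramp2.

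Gja4 and Gja5, gap junction connexins of arterial endothelium, did not pass the count filter and are given as levels alone. Gja4 had 2 to 25 counts per tumour, with a mean of 0.467 ± 0.214 CPM in induced and 0.331 ± 0.315 CPM in control tumours (SD, n = 7 and n = 5). Gja5 had 3 to 45 counts, with a mean of 0.426 ± 0.208 CPM in induced and 0.591 ± 0.549 CPM in control tumours. In the authors' deposited table the log2 fold change was 0.47 for Gja4 (adjusted p = 0.994) and -0.48 for Gja5 (adjusted p = 0.994).

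**Figure D4:**
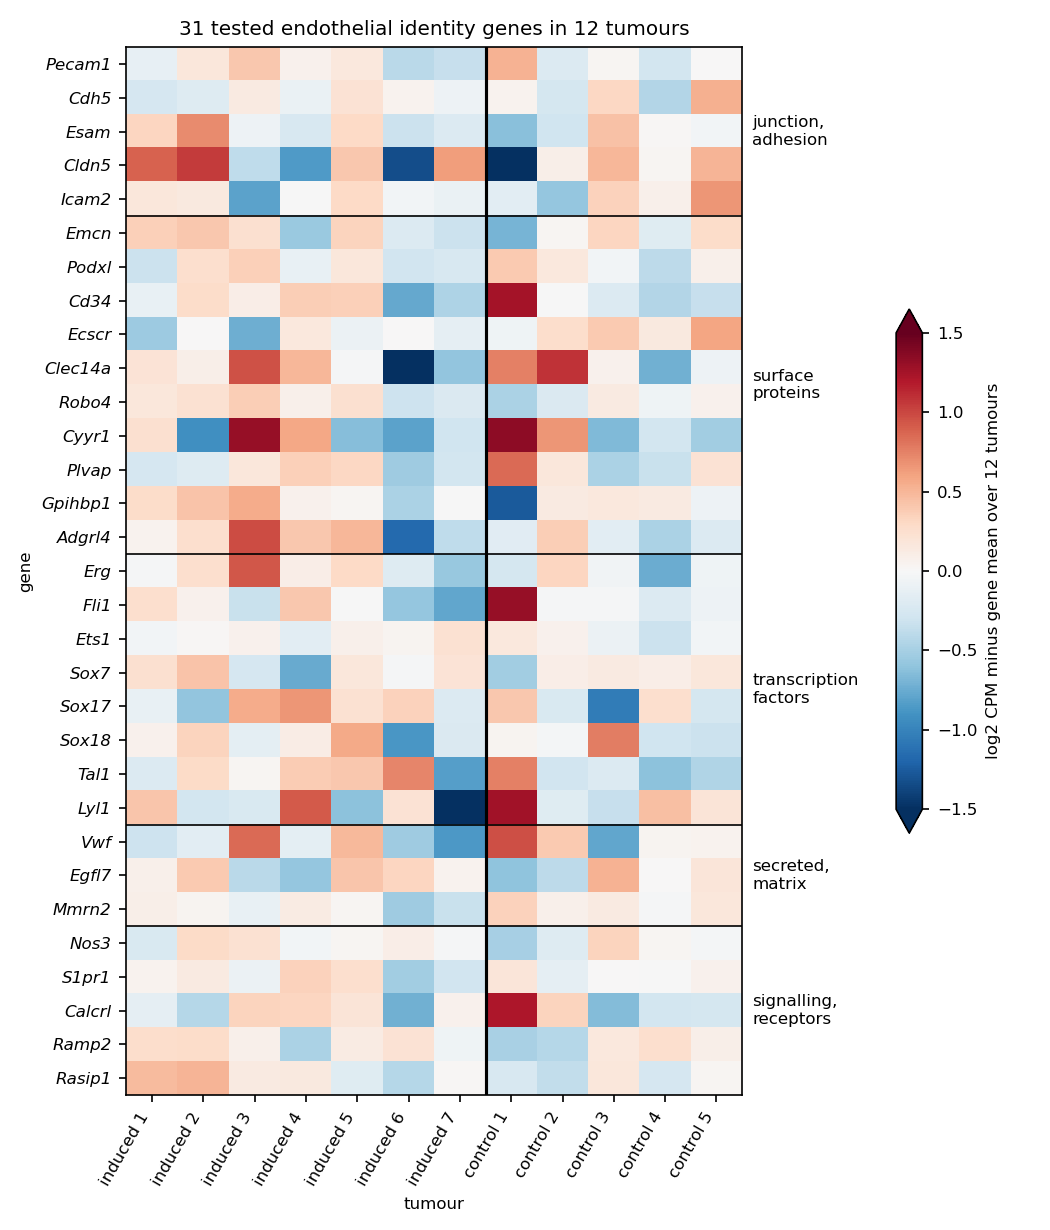
log2 CPM of the 31 tested members minus each gene's mean over the 12 tumours, with induced tumours left of the black line and control tumours right of it, grouped by role. Control 1 is mixed, holding the highest level of 11 genes and the lowest of 8, and induced 6 is low in most rows, holding the lowest level of 10.

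The tumours differed from each other more than the groups did, and the members did not move as a block. Control 1 held the highest level of 11 of the 31 tested members and the lowest level of 8, where the same tumour was highest for 16.2% and lowest for 16.4% of all genes. The 11 were Pecam1, Podxl, Cd34, Cyyr1, Plvap, Fli1, Tal1, Lyl1, Vwf, Mmrn2 and Calcrl. The 8 were Esam, Cldn5, Emcn, Robo4, Gpihbp1, Egfl7, Nos3 and Ramp2. Induced 6 was highest for none and lowest for 10 members, while it was lowest for 11.4% of all genes. Its 10 were Pecam1, Cd34, Clec14a, Plvap, Adgrl4, Sox18, Mmrn2, S1pr1, Calcrl and Rasip1. Measured as the median deviation of the members from their means on the log2 CPM scale, induced 6 was at -0.33 and induced 7 at -0.22, while induced 2 was at 0.23 and induced 5 at 0.22. Control 4 was lowest in the control group at -0.18. The tumours at both ends of the members' scale thus came from the induced group.

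Across the tumours that lay apart on the first principal component, 4 members separated from the other 8 tumours without overlap. This is a description, since the split was read from the same counts. Clec14a was at 2.21 to 3.36 CPM in the 4 tumours and at 0.258 to 1.79 CPM in the other 8. Cyyr1 was at 1.62 to 2.80 CPM in the 4 and 0.515 to 1.27 CPM in the other 8, and Calcrl at 5.86 to 10.9 CPM in the 4 and 2.79 to 5.36 CPM in the other 8. In the opposite direction, Egfl7 was at 24.7 to 28.6 CPM in the 4 and 37.8 to 54.0 CPM in the other 8. Of all genes, 12% lay wholly above and 15.2% wholly below in the same 4 tumours, against 3 and 1 of the 31 members. The 4 tumours comprised 2 from each group, so this split did not run along the treatment. The promoter windows of Egfl7 and Calcrl printed above both hold the overlapping ACAGGAA and AGGAAG words, but of the 3 RefSeq windows of Egfl7, 1 holds neither. A link between these words and the split was not tested.

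Members followed each other loosely across tumours. Correlation with Cdh5 was taken on log2 CPM, and because the tumours fell into separate sets on the first component, it was computed within the 8 tumours that lay together. There the median Spearman rho of the other 30 members with Cdh5 was 0.07, against 0 over all genes, and 17 of the 30 were positive. Over all 12 tumours the median was 0.08. Most like Cdh5 over the 8 tumours were Icam2 and Egfl7, each with a rho of 0.62, and Podxl with 0.55. At the other end stood Ramp2 with -0.64 and Lyl1 with -0.50. These are descriptions over 8 libraries, whose values share depth and scaling.

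Among all 465 pairs of the 31 members, the median rho over the 8 tumours was 0.29, against 0 over all pairs of tested genes, and 138 pairs were negative. Over all 12 tumours, where the sets are mixed, the median was 0.13 and 175 pairs were negative. The exact permutation test gave 4 pairs with an adjusted p under 0.05 for rho, adjusted over these 465 pairs, which were computed with the values already known. At an unadjusted p under 0.05 in that test there were 67 pairs, or 14.4%. The same shares over all pairs of tested genes were not computed, so these counts are not read as particular to the members. Cd34 and Robo4 ranked the 8 tumours identically (rho 1, exact p = 4.96e-05, adjusted p = 0.0231), with a Pearson r of 0.90 (exact permutation p = 0.00258, adjusted p = 0.0964) that was 0.94 without the 2 tumours farthest from the median of Cd34. Cd34 and Adgrl4 had a rho of 0.98 (exact p = 0.000397, adjusted p = 0.0461) and an r of 0.95 (exact permutation p = 4.96e-05, adjusted p = 0.0231). Robo4 and Adgrl4 had a rho of 0.98 (exact p = 0.000397, adjusted p = 0.0461) and an r of 0.92 (exact permutation p = 0.000223, adjusted p = 0.0346). Without the 2 farthest tumours r was 0.97 for Cd34 and Adgrl4 and 0.94 for Robo4 and Adgrl4. Emcn and Fli1 had a rho of 0.98 (exact p = 0.000397, adjusted p = 0.0461) and an r of 0.91 (exact permutation p = 0.000496, adjusted p = 0.0461), which was 0.75 without the 2 farthest tumours. Over all 12 tumours, as a description, rho was 0.29 for Cd34 and Robo4, 0.73 for Cd34 and Adgrl4, 0.69 for Robo4 and Adgrl4 and 0.09 for Emcn and Fli1. The tumours that lay apart left the lines of Cd34 with Robo4 and of Emcn with Fli1, most of all control 1, which had the highest Cd34 and the lowest Robo4 of all 12. The printed windows of Robo4 and Emcn each hold an AGGAAG word, as do 35.4% of all windows. A link between this word and the correlations was not tested.

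Pairs whose proteins are known to bind each other or to share a junction, chosen after the values were seen, did not pass that threshold. Calcrl and Ramp2, the chains of the adrenomedullin receptor, had a rho of -0.43 over the 8 tumours (exact p = 0.299, adjusted p = 0.618) and an r of -0.47 (exact permutation p = 0.234, adjusted p = 0.579). Clec14a and its matrix ligand Mmrn2 had a rho of 0.67 (exact p = 0.0831, adjusted p = 0.398) and an r of 0.89 (exact permutation p = 0.0106, adjusted p = 0.157). Pecam1 and Cdh5, which share the junction, had a rho of 0.24 (exact p = 0.582, adjusted p = 0.841) and an r of 0.37 (exact permutation p = 0.362, adjusted p = 0.720). Leaving out the 2 farthest tumours, r was -0.49 for Calcrl and Ramp2, 0.87 for Clec14a and Mmrn2 and 0.52 for Pecam1 and Cdh5. Over all 12 tumours, as a description, rho was -0.79 for Calcrl and Ramp2, 0.43 for Clec14a and Mmrn2 and 0.29 for Pecam1 and Cdh5.

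**Figure D5:**
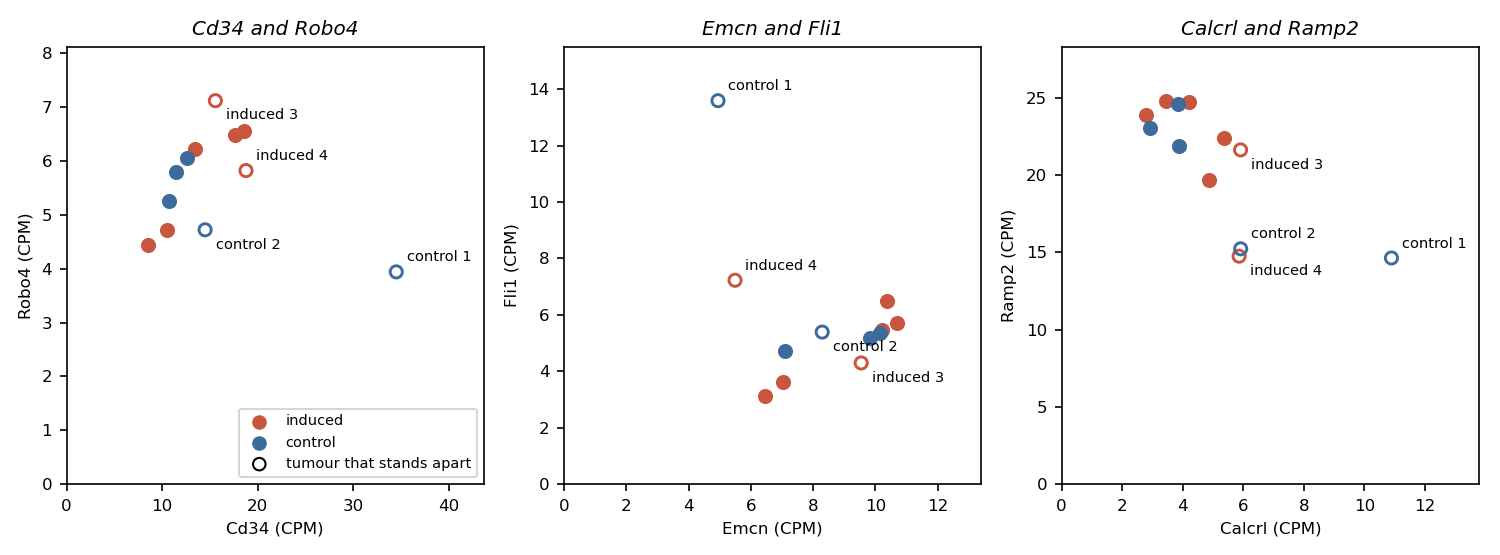
Level in CPM of 3 gene pairs, with 1 point per tumour, induced in red and control in blue, and open circles for the tumours that lay apart. The 8 filled points of Cd34 and Robo4 and of Emcn and Fli1 climb together, control 1 lies far off both lines, and Calcrl and Ramp2 lean the other way.

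No other endothelial gene outside the set passed the test. Of 45 listed, 44 were measured and 42 tested, and none was called. Fitted values were above 0 for 16 and below 0 for 26, a share of 38.1% above 0 against 49.8% of all genes. The median log2 fold change was -0.07, against -0.00083 over all genes. Kdr, the main VEGF receptor, averaged 15.8 ± 5.17 CPM in induced and 16.5 ± 4.49 CPM in control tumours (SD, n = 7 and n = 5). Flt1, the decoy-like VEGF receptor, averaged 16.1 ± 2.82 CPM in induced and 13.2 ± 1.2 CPM in control tumours, with all 7 induced tumours above the control mean (log2 fold change 0.28, SE 0.13). Sh2d3c, an adaptor of cell migration, averaged 11.4 ± 2.25 CPM in induced and 15.1 ± 3.50 CPM in control tumours, with all 7 induced tumours below the control mean (-0.41, SE 0.17). The unadjusted p in edgeR was 0.0486 for Flt1 and 0.0358 for Sh2d3c, and neither passed adjustment. These 2 were 4.76% of the 42 tested, against 2.13% of all genes at an unadjusted p under 0.05. Hhex, a homeobox factor of endothelium and blood, averaged 2.20 ± 0.774 CPM in induced and 3.39 ± 1.80 CPM in control tumours. Selp, the P-selectin of activated vessels and platelets, averaged 1.06 ± 0.471 CPM in induced and 1.80 ± 1.11 CPM in control tumours.

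Of 32 ligands, coreceptors and binding partners of the members, 29 were tested, 15 were fitted above 0 and 14 below, and none was called. The share above 0 was 51.7%, against 49.8% of all genes. Foxo1, a factor that AKT signalling below these receptors restrains, averaged 2.49 ± 0.766 CPM in induced and 3.29 ± 0.861 CPM in control tumours (SD, n = 7 and n = 5). Ramp1, which pairs with Calcrl in the receptor for the peptide CGRP, averaged 0.424 ± 0.378 CPM in induced and 0.765 ± 0.415 CPM in control tumours. Sphk1, which makes the ligand of S1pr1, averaged 5.57 ± 1.38 CPM in induced and 4.51 ± 0.597 CPM in control tumours. In the authors' deposited table all 31 tested members had the same sign of fold change as in the edgeR fit, which used the same counts, and 0 had an adjusted p under 0.05.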

How the data were processed

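Bulk RNA-seq counts of 12 tumours (7 induced, 5 control, each a separately titled sample) were analysed. The authors deposited whole-number counts for each Ensembl gene, not normalized, and rlog values on the log2 scale, which were not tested here, per the file headers. Their comparison was deposited as log2 fold changes, a signed linear score of the fold, and raw and adjusted p-values. Per the labels' protocols, RNA came from a column kit and libraries from a SMARTER mRNA-seq kit. GRCm38 (mm10) was the build per the submitters' processing notes. Aligner, counting tool, annotation and strand use were not given in the sources used here, and the labels' growth text describes another cell culture, so groups came from titles and treatment labels. Nothing in the labels says that tumours came from separate mice, and p-values measure only the spread between these samples.

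Counts were fitted with edgeR 4.0.16 in R 4.3.3 (filterByExpr, minimum count 10, 15199 genes kept and 9917 removed, TMM factors, robust quasi-likelihood F test, two-sided, Benjamini-Hochberg over all tested genes, threshold 0.05). SE and 95% intervals come from the same fit. CPM used TMM factors, and log2 CPM a prior count of 2. Tumours varied with a biological coefficient of variation of 32.1% (common estimate), and the median SE was 0.18. Positions, exonic lengths and exon overlaps came from GENCODE mouse release M21, on GRCm38. No pair of libraries of a group agreed within sampling noise (chi-square per gene 13.0 to 220.1, over 11749 genes averaging 50 or more counts). The fit was tested on simulated data before use. It called 43 of 96 genes changed 2-fold, 96 of 96 changed 4-fold and 8 of 15141 unchanged genes. The simulated tumours shared the same dispersion for all genes and had no tumours that lay apart, unlike the real ones.

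The members, the lists and the tests were chosen with earlier results of these data known. For Cdh5, Pecam1, Erg and the 10 members with the smallest unadjusted p, every control value and the lowest, median and highest induced value are given, and the rest are given by group means. In other lists up to 4 genes with the smallest p, and Kdr, are named, except for an item among the partners that is not reported here. The gene pairs were computed after the values were seen. Foxc2 and the markers Gp9 and Ccl21a were not analysed here. Alternatives were other size factors and filters, a fit that was not robust, limma-voom with sample quality weights (limma 3.58.1), DESeq2 1.42.0, a replicate block, fits without or with a term for the 4 tumours that lay apart, and each tumour left out.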

Additional observations from a re-analysis of the deposited data

Results flagged for a closer look

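Each group of each member was examined for a tumour far from its nearest neighbour, as a share of the group's range, by Dixon's 95% limits (0.568 for 7 tumours and 0.710 for 5). Of 66 groups, 9 passed, and 7 of the 9 were in control 1. That tumour was highest for 16.2% and lowest for 16.4% of all genes. The limits flag about 1 in 20 groups of normally spread values, and the same share over all genes was not computed. The count is therefore not read as a trait of the members. In induced 4, Gja4 was at 0.922 CPM with the nearest induced tumour at 0.508 CPM. In control 1, Cd34 was at 34.5 CPM with the nearest control tumour at 14.5 CPM, and Fli1 at 13.6 CPM with the nearest at 5.39 CPM. Tal1 was at 1.31 CPM in control 1 with the nearest at 0.635 CPM. Gja5 was at 1.56 CPM in the same tumour with the nearest at 0.439 CPM, and Gja4 at 0.865 CPM with the nearest at 0.317 CPM. The same tumour was low for Gpihbp1, at 2.87 CPM with the nearest at 6.64 CPM, and for Sox7, at 19.0 CPM with the nearest at 29.2 CPM. In control 3, Sox18 was at 5.81 CPM with the nearest at 3.46 CPM.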

How the results depend on the processing

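No member and no gene passed the threshold under any alternative run, so the counts of called genes were 0 throughout. No member changed sign with DESeq2, without robust estimation, or with another filter or set of size factors. The correlation of deviations of same-numbered tumours was between -0.53 and 0.21 over 5 numbers. Numbers 1 to 4 each match a tumour that lay apart with one that did not. The check therefore cannot tell whether equal numbers mark a shared litter, batch or day. With the replicate block, 26 of the other endothelial genes were fitted above 0, against 16 without it, and the members' median log2 fold change was 0.13. The block also changed the sign of Pecam1 (0.13), Podxl (0.031), Cd34 (0.17), Clec14a (0.13), Sox7 (-0.026), Sox18 (0.17) and S1pr1 (0.12). It left genes called at 0, with 108 genes at an unadjusted p under 0.05. With limma-voom and sample quality weights, which change the method and the weight of each library together, the sign changed for Pecam1 (0.020), Cd34 (0.21), Sox18 (0.18) and Calcrl (0.073). Without the 4 tumours that lay apart it changed for Emcn (-0.023), Podxl (0.031), Cd34 (0.24), Robo4 (-0.012), Cyyr1 (0.053), Gpihbp1 (-0.0030), Egfl7 (-0.00016), Nos3 (-0.086), Calcrl (0.22) and Ramp2 (-0.014). With a term for those 4 it changed for Pecam1 (0.0071), Cyyr1 (0.012) and Sox7 (-0.055).

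Leaving out each tumour in turn, 14 to 19 members were fitted above 0, with a median between -0.07 and 0.05, and the median rho with Cdh5 ran between -0.01 and 0.14. Among the other endothelial genes 15 to 21 and among the partners 12 to 17 were above 0. Members whose sign changed had log2 fold changes between these bounds: Pecam1 -0.11 to 0.12, Cdh5 -0.22 to 0.035, Cldn5 -0.030 to 0.36, Icam2 -0.30 to 0.028, Emcn -0.060 to 0.17, Podxl -0.17 to 0.024, Cd34 -0.32 to 0.25, Cyyr1 -0.57 to 0.24, Plvap -0.33 to 0.039, Ets1 -0.0010 to 0.12, Sox7 -0.088 to 0.13, Sox18 -0.17 to 0.18, Vwf -0.44 to 0.016, Egfl7 -0.042 to 0.24, S1pr1 -0.081 to 0.059, Calcrl -0.41 to 0.16.

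Over all alternatives 21 members changed sign at least once, and 10 did not: Esam, Ecscr, Adgrl4, Erg, Fli1, Sox17, Tal1, Lyl1, Mmrn2 and Rasip1. The cause of these changes was not tested. The median SE of 0.23 among members limits what could be seen, and members near 1 CPM, such as Tal1, Sox17 and Cyyr1, rest on few counts.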
